A study of Mus musculus with 6 samples.

Results

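The carbonic anhydrase genes Car2, Car3, Car4, Car5b, Car8, Car13 and Car14 were followed in nanopore libraries of full-length cDNA from interscapular brown fat, the heat-producing depot between the shoulder blades. They are 7 genes chosen by name from the 16 carbonic anhydrase genes of the mouse annotation, and 6 of the 7 were among the 8129 genes with at least 1 read. A gene's reads are the sum of all its transcripts on both flow cells. The read counts of these libraries were known when the genes were chosen, so all differences of these 7 genes between cold and control are given as a description, without a test. The choice followed no read threshold: Car8 had 0 reads and Car5b 4, while Car11, which was not chosen, had 3. The other 8 genes of the family (Car1, Car5a, Car6, Car7, Car9, Car10, Car12 and Car15) had 0 reads.

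All mice were wild-type C57BL/6N males aged 20 weeks. In the cold group 3 mice were held alone at 4 °C for 24 h, and the control group also had 3 mice. The cold treatment stands on the records of all 6 samples, so the groups were taken from the titles and the treatment label. For the controls only the husbandry range of 22 to 24 °C is known, and whether they too were held alone is not known, so the cold and single housing cannot be told apart. Every library came from whole tissue, in which fewer cells of a type and less RNA per cell cannot be told apart.

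Carbonic anhydrases are zinc enzymes that interconvert carbon dioxide and water with bicarbonate and a proton. The reaction carries carbon dioxide out of respiring tissue, buffers pH, and supplies bicarbonate to carboxylases of fatty acid and glucose synthesis. Members differ in where they sit: Car2, Car3 and Car13 are cytosolic, Car5b is mitochondrial, and Car4 and Car14 are held on the outer face of the cell membrane. Car8 is a carbonic anhydrase-related protein without the classical activity. Car3 is known as an abundant protein of adipocytes and slow muscle with low hydratase activity.

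The zinc ion of the active site is held by 3 histidines. The coding stretches around the first pair are shown for the 6 members with reads, because they hold the catalytic site that these members share and show how far the sequences that the reads had to be assigned to lie apart. Each is 57 bases of the main protein-coding transcript in GENCODE M21, 5′ to 3′, with the codons at the first and second zinc positions in capitals.
Car2: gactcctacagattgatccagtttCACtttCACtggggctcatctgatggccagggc
Car3: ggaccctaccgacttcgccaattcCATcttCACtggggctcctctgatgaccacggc
Car13: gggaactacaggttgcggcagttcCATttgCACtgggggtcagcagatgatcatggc
Car5b: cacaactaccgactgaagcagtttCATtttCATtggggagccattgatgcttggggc
Car4: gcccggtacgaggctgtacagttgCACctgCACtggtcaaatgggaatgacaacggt
Car14: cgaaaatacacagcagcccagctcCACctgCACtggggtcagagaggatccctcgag
In all 6 of these genes the 3 zinc positions are histidine codons, written CAC or CAT at the positions shown.

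Each stretch lies within 1 coding exon of the GRCm38 genome. That of Car2 is in exon 3 of 7 at chr3:14895045-14895101 on the plus strand, that of Car3 in exon 3 of 7 at chr3:14866826-14866882 on the plus strand, and that of Car13 in exon 3 of 7 at chr3:14650682-14650738 on the plus strand. The Car4 stretch is in exon 4 of 8 at chr11:84964143-84964199 on the plus strand. On the minus strand lie those of Car5b (exon 4 of 8, chrX:163991390-163991446) and Car14 (exon 4 of 11, chr3:95900285-95900341). Between members the coding sequences were at most 63.5% identical (Car2 and Car3 over 780 aligned bases). The 3′ end of Car14 shares 447 bases with Aph1a, a gene on the opposite strand with 108 reads. The sources used here do not say whether counting used strand, so reads from the shared stretch cannot be told apart. For Car2, Car3, Car4, Car8 and Car13 no other gene had a stretch of 200 bases or more at 90% identity or above.

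Library totals ran from 1014812 to 1849351 reads in control and from 2922939 to 2982630 in cold, so every cold library was deeper than every control library. Levels are given as CPM, the reads of a gene per 1000000 reads of its library, after TMM scaling of library sizes. At this scale 3 reads, taken as the floor of detection, make 1.62 to 3.08 CPM in control libraries and 0.988 to 1.01 CPM in cold ones. The brown fat markers had reads for 8 of 8 genes. In each marker list a gene counted as read if any library held a read. Not every brown fat marker was read in control. The brown fat list summed to 14214 to 19045 CPM in control and 13894 to 14929 CPM in cold. Ucp1, the uncoupling protein that makes heat, lay between 4081 and 4792 CPM in every library. Members of that list differed in direction: Elovl3, a fatty acid elongase (log2 change 3.69 ± 0.38, edgeR adjusted p = 6.12e-05), and Kcnk3, a potassium channel (1.35 ± 0.24, edgeR adjusted p = 0.00176), rose. Cox8b, a subunit of cytochrome c oxidase, fell from 3890 ± 1547 to 1975 ± 377 CPM (-0.98 ± 0.25, edgeR adjusted p = 0.0127), a change of -0.61 without control 2 and a call lost without cold 11 (adjusted p = 0.0527) or without cold 11 and cold 15 together (adjusted p = 0.0918). White fat markers, with reads for 5 of 9 (Hoxc9, Hoxc10 and Tcf21 at 0, Wdnm1-like without a match by that name), summed to 66.5 to 119 CPM in control and 167 to 256 CPM in cold, nearly all of it Retn. Skeletal muscle genes, with reads for 13 of 14 (Myh2 at 0), summed to 146, 596 and 1042 CPM in control mice 2, 9 and 14 and to 229, 3242 and 15360 CPM in cold mice 4, 11 and 15. Of 2093 genes tested across the table by edgeR's quasi-likelihood test, 695 or 33.2% were called at an adjusted p under 0.05, 378 higher and 317 lower in cold. With the muscle-rich libraries cold 11 and cold 15 left out together, 321 were called.

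Car3 made up nearly the whole family in control brown fat and was lower in every cold library. Control mice 2, 9 and 14 gave 1189, 626 and 884 reads, and cold mice 4, 11 and 15 gave 99, 104 and 129, although the cold libraries were the deeper ones. In normalised counts these were 643, 643 and 530 CPM in control and 33.2, 34.4 and 42.5 CPM in cold. The lowest control library thus lay far above the highest cold library, and the spread within each group was small beside the gap between them. The mean was 606 ± 65.1 CPM in control and 36.7 ± 5.04 CPM in cold (SD, n = 3 each), a level 16.5-fold higher in control, and the log2 change, cold minus control, was -4.04 ± 0.22 (SE). Only 5 of the 2093 tested genes had a lower log2 change. By mean CPM Car3 was gene 220 from the top of the table in control and gene 908 in cold.

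The low Car3 level of the cold mice was alike in libraries that differed widely in the listed muscle transcripts. Muscle expresses Car3 too. Between cold 4 and cold 15 the summed level of the listed genes differed 67.1-fold, with Car3 at 33.2 and 42.5 CPM. The list holds genes of fast fibres and genes common to fibre types, and none particular to slow fibres. It therefore cannot show whether slow muscle, where Car3 is known to be abundant, differed between these libraries. Within the controls the muscle sum ran from 146 to 1042 CPM and Car3 from 643 to 530 CPM. With cold 11 and cold 15 left out together, the log2 change of Car3 was -4.14 ± 0.48. Of the general adipocyte markers, with reads for 6 of 6, the sum was 39908 to 45173 CPM in control and 45319 to 49273 CPM in cold. Most of that sum was Fabp4, a fatty acid binding protein (35074 ± 2612 and 37795 ± 2148 CPM, edgeR adjusted p = 0.507). In the same list Adipoq, which encodes adiponectin, fell from 1914 ± 248 to 1043 ± 103 CPM (-0.88 ± 0.16, edgeR adjusted p = 0.0022), and Cidec, a lipid droplet protein, rose from 3986 ± 226 to 6266 ± 345 CPM (0.65 ± 0.13, edgeR adjusted p = 0.00313; 0.111 without cold 11 and cold 15 together). The parts of adipocyte and muscle content in the Car3 level were not tested.

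**Figure D1:**
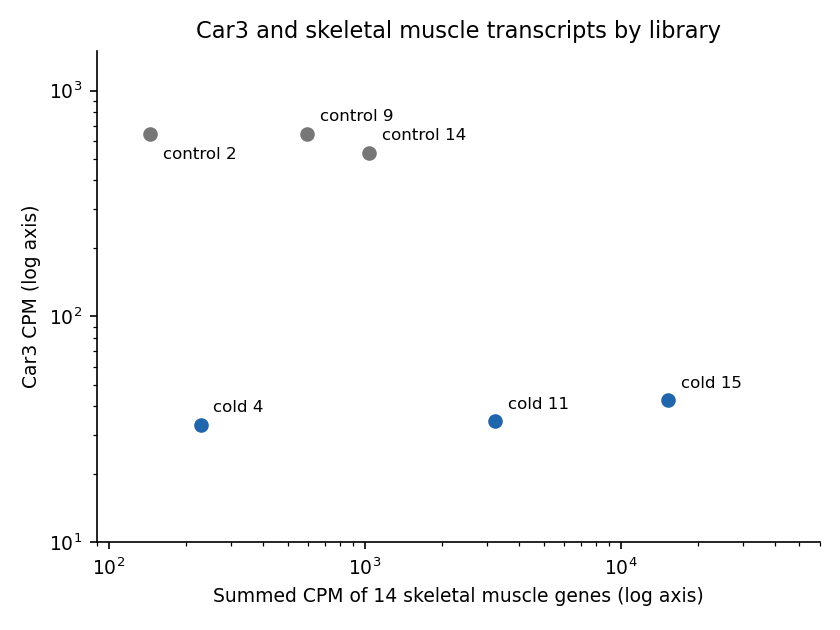
Car3 level against the summed level of 14 skeletal muscle genes, both in CPM on log axes, with 1 point per library (grey control, blue cold). The cold libraries span 229 to 15360 CPM of these muscle genes at 33.2 to 42.5 CPM of Car3. Control libraries lie above them at 530 to 643 CPM. None of the 14 genes is particular to slow fibres.

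Nearly all Car3 reads came from its protein-coding transcript, with 3025 of 3031. Its 2 retained-intron transcripts had 4 and 2 reads, all in control libraries. That is 6 of 2699 control reads, or 0.222% (95% exact Clopper-Pearson interval 0.0816 to 0.483%), and 0 of 332 cold reads, which allows a share of up to 0.904%. A difference in this share was therefore not detectable at this depth. Intervals and floors here cover counting error only, because PCR copies are not independent molecules.

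Car13 and Car4, the next most read members, had overlapping groups. For Car13, a cytosolic enzyme, the libraries gave 14.1, 12.3 and 9.60 CPM in control mice 2, 9 and 14 and 13.1, 14.9 and 17.5 CPM in cold mice 4, 11 and 15. The lowest cold library lay below the highest control library. Means were 12.0 ± 2.25 and 15.1 ± 2.20 CPM, and the log2 change was 0.33 ± 0.27. It rested on few reads, 54 in control and 137 in cold: on flow cell 1 alone the change was -0.033 and on flow cell 2 alone 0.77.

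Car4 is anchored to the outer face of the cell membrane and is known from capillary endothelium. Its libraries gave 17.3, 12.3 and 9.60 CPM in control and 7.38, 11.9 and 16.1 CPM in cold, so the groups overlapped over most of their range. Means were 13.1 ± 3.91 and 11.8 ± 4.38 CPM, with a log2 change of -0.16 ± 0.35, and leaving out 1 library at a time moved it between -0.45 and 0.13. Without both cold 11 and cold 15 it was -0.79 ± 0.55. Endothelial markers, with reads for 8 of 10 (Tek and Vwf at 0), summed to 439 to 582 CPM in control and 817 to 942 CPM in cold. Most of that sum was Gpihbp1, and without it the ranges were 20.0 to 37.0 and 24.5 to 31.2 CPM.

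Car2, the fast cytosolic enzyme known from red cells and many epithelia, was low in control and higher in each cold library. Its reads were 3, 2 and 2 in control mice 2, 9 and 14 and 16, 38 and 12 in cold mice 4, 11 and 15. The corresponding levels were 1.62, 2.06 and 1.20 CPM, all at or under the floor of those libraries, and 5.37, 12.6 and 3.95 CPM. The groups did not overlap, and cold 11 lay well above the other cold libraries. Car2 did not pass the filter on low counts and was not fitted. From the summed reads of each group, 7 and 66, the ratio of cold to control was 4.68 (95% exact interval of the counts 2.15 to 12.1, which leaves out variation between mice). The log2 ratio of the mean levels was 2.17, and 1.52 without cold 11. Erythroid genes, most of all those of haemoglobin, summed to 14978 to 28132 CPM in control and 16327 to 22521 CPM in cold. Car1, the other carbonic anhydrase known from red cells, had 0 reads beside these haemoglobin levels.

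Car14, a transmembrane enzyme that faces outwards, had 1, 1 and 0 reads in control mice 2, 9 and 14 and 6, 6 and 7 in cold mice 4, 11 and 15. In CPM these were 0.541, 1.03 and 0 against 2.01, 1.99 and 2.31. The groups did not overlap, but each control value was under its 3-read floor. The ratio of cold to control, from 19 and 2 reads, was 4.72 with a wide counting interval of 1.14 to 41.8. Aph1a, which shares exon sequence with Car14, averaged 6.83 ± 4.998 CPM over the control libraries and 8.40 ± 2.43 CPM over the cold ones (log2 change 0.25 ± 0.46, edgeR adjusted p = 0.708). The control mean rested on control 14, with 12.6 CPM against 3.79 and 4.11. Leaving out 1 library at a time moved the log2 change of Aph1a between -0.11 and 1.06. The upper value was that without control 14 (edgeR adjusted p = 0.124). Reads of Aph1a and Car14 from the shared stretch cannot be told apart.

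Car5b, the mitochondrial enzyme, had 2 reads in control 9 and 1 each in cold 4 and cold 11. Its level could not be compared at this depth. Car8 had 0 of 13456841 reads in all libraries together, which allows up to 0.223 CPM. The transcript counted for Car5b is 3436 bases long, against 1249 to 2299 bases on average for the members with more reads.

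The groups did not overlap in 3 of the 7 members, Car3, Car2 and Car14, of which only Car3 passed the filter. Across the 2093 tested genes the groups did not overlap in 47.8%, with 26.0% higher and 21.8% lower in cold. Since the members were chosen with these values known, nothing is read from their count.

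**Figure D2:**
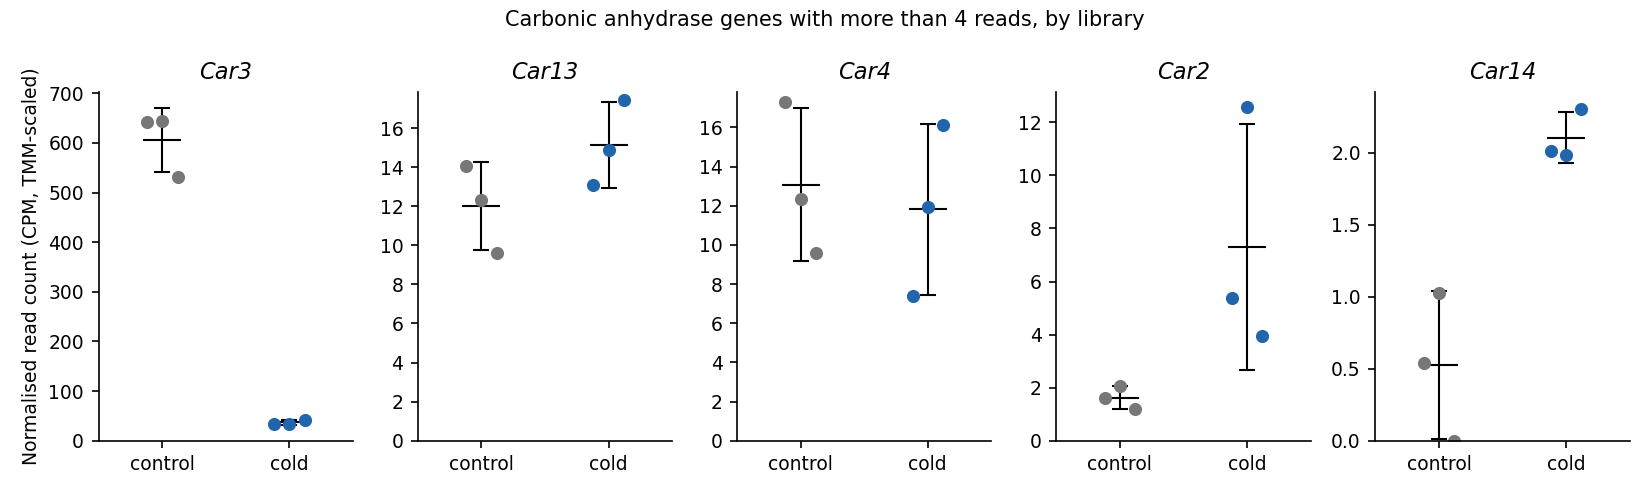
Normalised read counts (CPM, linear axes from 0, scaled separately) of Car3, Car13, Car4, Car2 and Car14, with 1 point per library, and the mean and SD of 3 libraries as bars. The control and cold points of Car3, Car2 and Car14 do not overlap, Car3 lying lower in cold and the others higher, while those of Car13 and Car4 overlap.

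The family as a whole was smaller and more even in the cold. All carbonic anhydrase reads together made 677, 673 and 551 CPM in control mice 2, 9 and 14 and 61.8, 76.1 and 82.7 CPM in cold mice 4, 11 and 15. Car3 held 94.97, 95.6 and 96.3% of them in control and 53.8, 45.2 and 51.4% in cold. The exact 95% counting intervals of this share ran no lower than 93.6% in any control library and no higher than 61.2% in any cold library. They treat reads as independent, which PCR copies are not, and leave out variation between mice, so they are no test of the groups. Everything but Car3 summed to 28.1 ± 6.996 CPM in control and 36.8 ± 7.21 CPM in cold (SD, n = 3), with overlapping libraries. Within the cold libraries Car13 held 20.6 ± 0.919% of the family's reads, Car4 15.7 ± 3.78%, Car2 9.999 ± 5.98% and Car14 2.89 ± 0.337%.

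**Figure D3:**
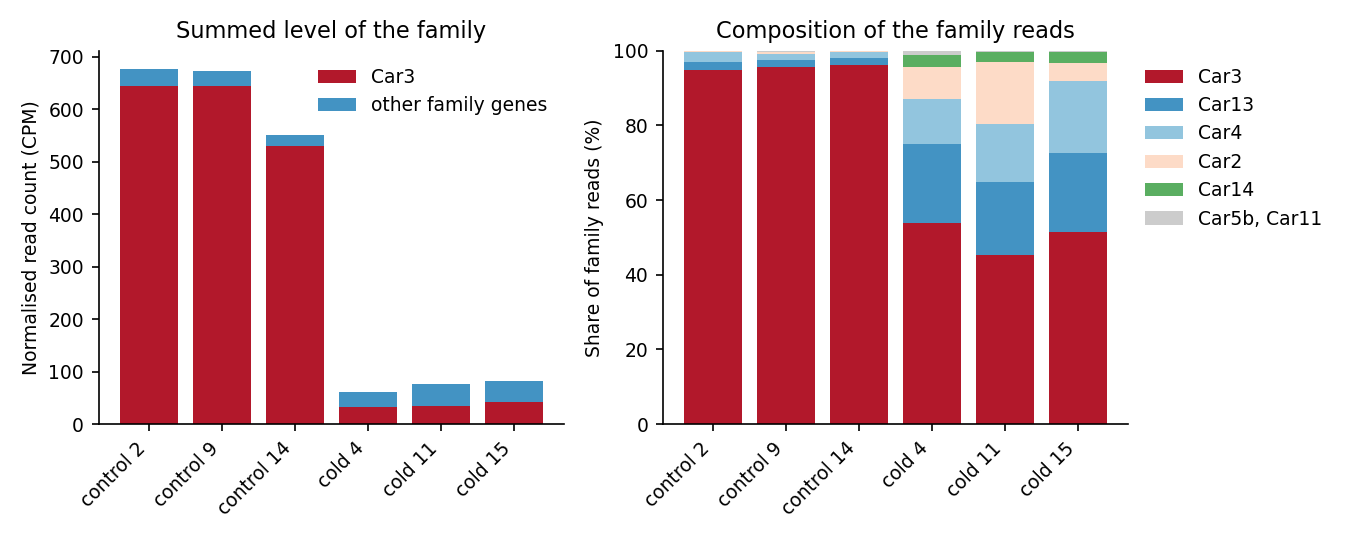
Left, summed level of all carbonic anhydrase reads in CPM by library, split into Car3 and the rest. Right, the percentage of these reads held by each gene. Car3 holds 94.97 to 96.3% in control libraries and 45.2 to 53.8% in cold libraries.

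Levels of different genes were ordered by CPM per kb of transcript length. In control the order was Car3 (361 ± 38.8 CPM per kb), Car4 (10.5 ± 3.13), Car13 (5.22 ± 0.979), Car2 (0.916 ± 0.241), Car14 (0.306 ± 0.301) and Car5b (0.199 ± 0.345). In cold the order was the same, with Car3 at 21.9 ± 3.00, Car4 at 9.46 ± 3.51, Car13 at 6.59 ± 0.955, Car2 at 4.11 ± 2.60, Car14 at 1.23 ± 0.104 and Car5b at 0.0647 ± 0.0560 CPM per kb. In the cold the log2 ratio of Car13 to Car2 within a library was 0.85 ± 0.95 (mean ± SD over 3 libraries), no larger than its spread. That of Car4 to Car13 was 0.46 ± 0.37, with 0.054, 0.56 and 0.77 in cold mice 4, 11 and 15. In control these ratios were 2.53 ± 0.28 and 0.98 ± 0.17. The place of Car4 above Car13 depends on the scale, because its transcript is shorter. In CPM the mean log2 ratio of Car4 to Car13 was 0.10 in control and -0.42 in cold, with -0.83, -0.32 and -0.11 in cold mice 4, 11 and 15. Each read is meant to stand for 1 full-length cDNA molecule after PCR, so the CPM order is an order of reads of amplified cDNA. Car14 and Car5b rested on 21 and 4 reads, too few to be placed firmly.

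Car13, Car1, Car3 and Car2 form a cluster on chromosome 3 that spans 259 kb on GRCm38. In that order Car13 (ENSMUSG00000027555) runs from 14641727 to 14663002, Car1 (ENSMUSG00000027556) from 14766216 to 14808368 on the opposite strand, Car3 (ENSMUSG00000027559) from 14863512 to 14872523, and Car2 (ENSMUSG00000027562) from 14886273 to 14900770. Only 13.8 kb separate Car3 from Car2. These neighbours nonetheless had opposite differences, Car3 being lower and Car2 higher in all 3 cold libraries than in any control library, while Car13 overlapped and Car1 had 0 reads. The only other genes with reads within 500 kb of Car3 were Gm16399 with 1 read and 1810022K09Rik, with 5.14 ± 0.266 CPM in control libraries against 2.66 ± 0.604 in cold ones (log2 change -0.93 ± 0.39, edgeR adjusted p = 0.0912).

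**Figure D4:**
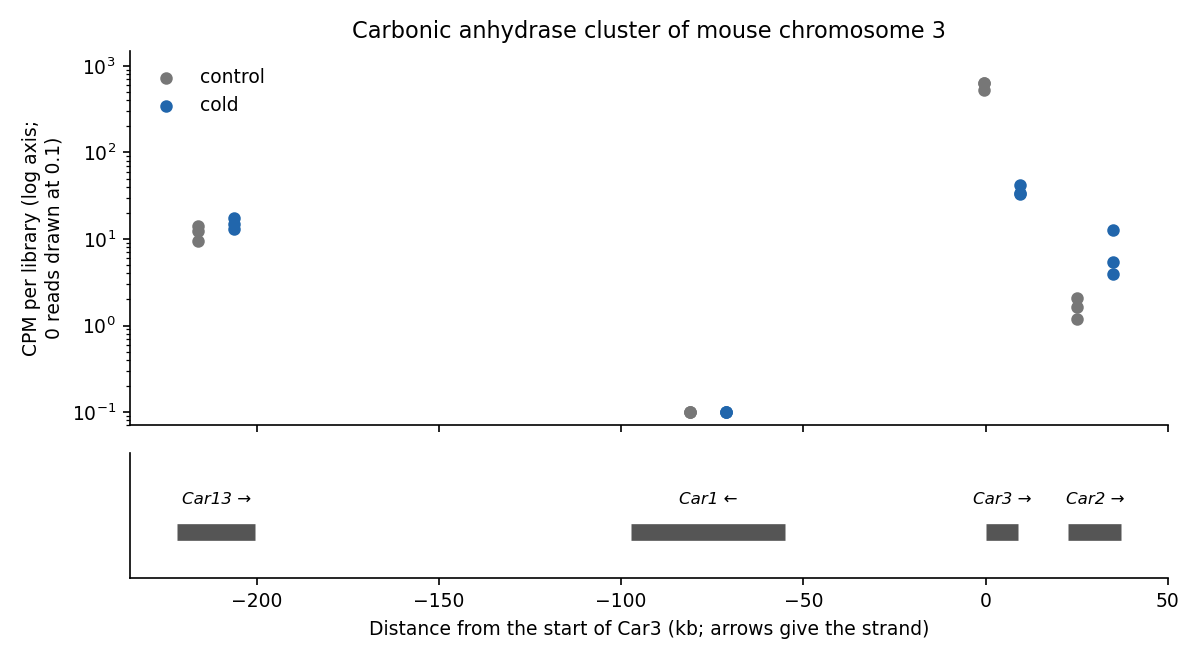
Levels of the 4 carbonic anhydrase genes of chromosome 3 (upper panel, CPM per library on a log axis, 0 reads drawn at 0.1, grey control and blue cold) above their position in kb from the start of Car3 (lower panel). Car3 and Car2, 13.8 kb apart, differ in opposite directions, and all libraries of Car1 are at 0.

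The other members lie apart. Car14 (ENSMUSG00000038526) is also on chromosome 3, from 95897768 to 95904691, Car4 (ENSMUSG00000000805) on chromosome 11 from 84957786 to 84966044, Car8 (ENSMUSG00000041261) on chromosome 4 from 8143362 to 8239041, and Car5b (ENSMUSG00000031373) on chromosome X from 163976822 to 164027997.

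The genes most like Car3 in pattern were those with the smallest root mean square distance of log2 CPM over the 6 libraries, each gene centred on its own mean. They were Tmem45b at 0.43, Slc25a1, the mitochondrial citrate carrier, at 0.48, the pseudogene Gm49146 at 0.52, Fasn, the fatty acid synthase, at 0.58, and Pnpla3, a lipid droplet hydrolase, at 0.61. The median distance of all tested genes from Car3 was 2.06. Mean levels of Tmem45b were 934 ± 152 CPM (control) and 50.1 ± 15.7 CPM (cold), and those of Fasn 757 ± 316 and 46.4 ± 20.4 CPM. Both varied more between mice than Car3 did. The likeness rests mostly on the gap between the groups and is a description of 6 libraries. The genes nearest to Car13 were the pseudogene Gm10177 (0.055), Mrpl54 (0.072), Arl2 (0.076), Selenof (0.088) and Retsat (0.090), against a median of 0.49 over all genes. Those nearest to Car4 were Rnf166 (0.17), Tmem86a (0.17), Eif1 (0.19), Trappc1 (0.19) and Ly6e (0.20), against a median of 0.59. The log2 changes of these 10 genes lay between -0.26 and 0.45.

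Partners of carbonic anhydrase in carbon dioxide, bicarbonate and proton handling were counted in 5 lists. The choice of members did not use these lists, but the lists too were drawn up with earlier results of these data known. Over all lists 32 of 77 genes were tested by edgeR, of which 6 rose and 9 fell, with a median log2 change of -0.08 against 0.042 over all 2093 genes. As 33.2% of all genes were called, 18.1% higher and 15.1% lower, these counts are set beside that background. Without cold 11 and cold 15 the counts were 4 and 2, and with 1 library left out in turn they ran from 4 to 6 rises and from 5 to 10 falls, with 5 falls without control 9, cold 4 or cold 15.

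Of 4 tested genes of lactate handling 3 rose and 0 fell (median log2 change 1.06). Bsg encodes basigin, which brings monocarboxylate carriers to the cell surface, and rose from 1014, 986 and 1289 CPM in control mice 2, 9 and 14 to 2515, 2422 and 2285 CPM in cold mice 4, 11 and 15 (log2 change 1.13 ± 0.16, edgeR adjusted p = 0.000443). Slc16a1, the proton-coupled monocarboxylate carrier MCT1, rose from 79.1 ± 35.2 to 166 ± 54.5 CPM (1.08 ± 0.35, edgeR adjusted p = 0.0328). Its call was lost without control 2, control 14, cold 4 or cold 11, or without cold 11 and cold 15 together, with adjusted p values of 0.0585 to 0.127. Ldhb, the lactate dehydrogenase subunit of oxidative tissue, rose from 697 ± 160 to 1435 ± 235 CPM (1.04 ± 0.21, edgeR adjusted p = 0.00338). Ldha stood at 2266 ± 421 and 1891 ± 443 CPM and was not called (-0.26 ± 0.20, edgeR adjusted p = 0.351).

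Membrane carriers of bicarbonate and protons were hardly read. Of 25 listed genes 9 had any read and 1 was tested. That gene, Slc9a3r2, encodes an adaptor of sodium-proton exchangers and fell from 51.7 ± 7.74 to 29.0 ± 7.87 CPM (-0.83 ± 0.26, edgeR adjusted p = 0.0300). This call did not hold with control 9, cold 4 or cold 15 removed, with no count filter, on flow cell 2 alone, or with cold 11 and cold 15 both removed (adjusted p of 0.0843 to 0.137). The bicarbonate carriers Slc4a2, Slc4a4, Slc4a7 and Slc4a8 were below 1 CPM in every library. Of 11 water and gas channels 2 had reads, and Aqp7, an aquaglyceroporin of adipocytes, rose from 4.21 ± 1.53 to 9.51 ± 1.26 CPM (1.10 ± 0.37, edgeR adjusted p = 0.0386). That call was lost in DESeq2, with no count filter, and without control 9, control 14 or any cold library (adjusted p of 0.0580 to 0.388).

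In the list of carboxylases, which bind bicarbonate to a substrate, 1 of 7 tested genes fell and 0 rose (median -0.22). Btd, among the 7, encodes biotinidase, which recycles the biotin that these enzymes carry and is not itself a carboxylase. The median is the log2 change of Btd (-0.22 ± 0.25, edgeR adjusted p = 0.519). Acaca, the acetyl-CoA carboxylase of fatty acid synthesis, fell from 10.3, 20.6 and 10.8 CPM in control mice 2, 9 and 14 to 1.34, 1.99 and 0.329 CPM in cold mice 4, 11 and 15 (-3.38 ± 0.52, edgeR adjusted p = 0.000689). The cold values lie near the 3-read floor. Pccb, a propionyl-CoA carboxylase subunit, stood at 765 ± 212 and 583 ± 75.2 CPM (-0.39 ± 0.22, edgeR adjusted p = 0.193), and was called lower without control 2 (adjusted p = 0.0376). Pcx, the mitochondrial pyruvate carboxylase, stood at 8.64 ± 0.829 and 6.42 ± 0.721 CPM (-0.43 ± 0.31, edgeR adjusted p = 0.315).

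The list of enzymes that release carbon dioxide moved in both directions, with 7 of 19 tested genes lower, 2 higher and 10 not called (median -0.17). It also holds partner subunits of their complexes, and Glud1, glutamate dehydrogenase, which releases ammonia and no carbon dioxide. The median is the log2 change of Glud1 (-0.17 ± 0.19, edgeR adjusted p = 0.539). Pyruvate dehydrogenase genes were among the falls: Pdhb, which encodes the E1 beta subunit, fell from 1244 ± 125 to 621 ± 85.2 CPM (-1.002 ± 0.17, edgeR adjusted p = 0.00142), and Pdha1, which encodes its alpha partner, from 388 ± 63.2 to 188 ± 23.0 CPM (-1.05 ± 0.20, edgeR adjusted p = 0.00281). Idh1, the cytosolic isocitrate dehydrogenase, rose from 7.07 ± 3.00 to 24.0 ± 3.59 CPM (1.85 ± 0.33, edgeR adjusted p = 0.00160), and Dbt, a subunit of the branched-chain keto acid dehydrogenase, rose by 2.08 ± 0.39 on the log2 scale. The other falls were Me1 (-3.07 ± 0.58), Pgd (-1.02 ± 0.24), Dlat (-0.85 ± 0.28), Idh2 (-0.62 ± 0.19) and Pck1 (-0.60 ± 0.20). Without cold 11 and cold 15 together all of these falls but that of Me1 lost their call. The calls of Idh2 and Pck1 were also lost on leaving out any single library other than control 2 (adjusted p up to 0.221 and 0.388 over all alternatives), and that of Dlat without control 9, control 14, cold 4 or cold 15 (up to 0.264).

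**Figure D5:**
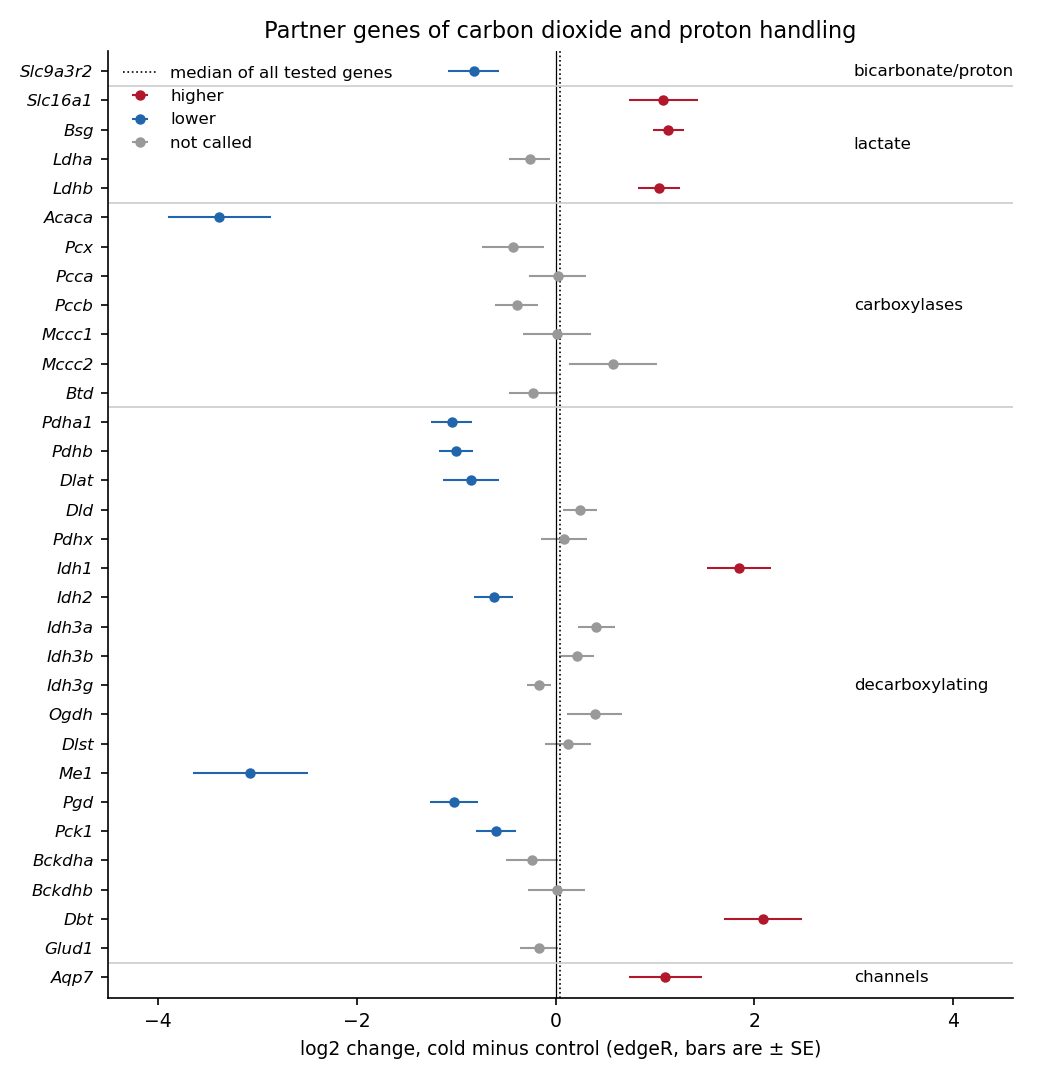
Log2 change, cold minus control, with its SE as bars, of the 32 tested partner genes in 5 lists (red higher, blue lower, grey not called by edgeR at an adjusted p under 0.05). The dotted line is the median of all 2093 tested genes at 0.042, and 6 genes lie in red and 9 in blue.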

How the data were processed

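Per the labels' protocols, poly(A) RNA was selected in 2 rounds, turned into cDNA with the TeloPrime full-length kit over 27 PCR cycles, and 400 ng were barcoded and prepared by ligation for nanopore sequencing. The extraction text names eWAT, a white depot, while the tissue labels give brown fat, which was used. The authors deposited raw counts of reads per Ensembl transcript, 12 files for 2 flow cells of 6 libraries. The submitters' processing notes name minimap2 and GRCm38, and the sources used here do not say how reads matching several transcripts were assigned. A transcript absent from a file was counted as 0. Of 14693 transcript identifiers 22 had no match in GENCODE M21 (at most 0.00433% of a library) and were left out.

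Counts were summed per gene and library and fitted in edgeR 4.0.16 (R 4.3.3) with filterByExpr at a minimum count of 10, TMM scaling, no covariate and the robust quasi-likelihood test, with Benjamini-Hochberg adjustment over 2093 genes. Each SE was obtained from the log2 change and its F statistic. Per the labels each library has a mouse number of its own, so p-values measure the spread between mice. The fit was also run on simulated counts with the same dispersion for every gene and no muscle difference between libraries. That run therefore does not test the calls in these libraries. Car3, Car4 and Car13 passed the filter. In 32 exact binomial tests of a member's reads on the flow cells of a library, 0 differed (smallest p = 0.0511, smallest adjusted p = 0.786). Coding stretches were read from the GENCODE transcripts and aligned by their translation in Biopython 1.88, and similar sequences were sought with blastn 2.17.0. The stretch of 1 member and 1 marker gene are not reported here.

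The members and lists were chosen with earlier results of these data known. Named are all members, the 3 partner genes with the smallest p in each list with a call and every other called one, the 5 genes nearest in pattern to each member of at least 10 CPM, and genes with at least 10 reads within 500 kb of a member. The single marker genes named were chosen after their values were seen. Scaling, filter, test (DESeq2 1.42.0), depth, flow cell, transcript type, prior count and left-out libraries were varied. Leaving out cold 11 and cold 15 together was chosen after seeing the data.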

Additional observations from a re-analysis of the deposited data

How the results depend on the processing

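Car3 kept its direction under every alternative run for it, with log2 changes from -4.19 at equal depth to -3.92 with no count filter, and from -4.16 to -3.99 with 1 library left out. With 1 library left out, Car13 ranged from 0.15 to 0.48 and Car4 from -0.45 to 0.13. Car2 was not fitted, and the log2 ratio of its mean levels ranged from 1.52 to 2.46. Car13 moved beyond its replicate spread on flow cell 1 alone (-0.033) and flow cell 2 alone (0.77). With cold 11 and cold 15 left out together, Car4 moved to -0.79, and the genes called numbered 321, 201 higher and 120 lower, with 2 partner genes lower; the lone cold library is then assumed to vary like the controls. Called genes numbered 498 to 687 with 1 library left out, 275 to 360 higher and 223 to 327 lower, and called partner genes 4 to 6 higher and 5 to 10 lower. In CPM rather than CPM per kb, the log2 ratios of neighbours were 5.57 (Car3 to Car4), 0.10 (Car4 to Car13) and 2.90 (Car13 to Car2) in control, and 1.70 (Car3 to Car4) and -0.42 (Car4 to Car13) in cold, since the transcripts differ in length. Depth limits Car2, Car14, Car5b and Car8, whose control levels lie at or under the 3-read floor. No paired analysis was possible because no mouse number occurs in both groups.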

Other observations

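Several genes within 500 kb of a member had at least 10 reads. Dhrs11, a short-chain dehydrogenase gene 129 kb from Car4, rose from 27.1 ± 4.79 to 64.5 ± 1.38 CPM (log2 change 1.23 ± 0.23, edgeR adjusted p = 0.00199), while Car4 itself overlapped between groups. BC028528, 5.76 kb from Car14, rose from 18.8 ± 2.98 to 67.4 ± 2.99 CPM (1.82 ± 0.23, edgeR adjusted p = 0.000231). Both kept their call under every alternative run for them. Mrps21, a mitochondrial ribosomal protein gene 26.2 kb from Car14, fell from 486 ± 106 to 329 ± 8.82 CPM (-0.56 ± 0.20, edgeR adjusted p = 0.0479), a call lost under 10 alternatives, among them the removal of any single library other than control 14 (adjusted p of 0.0502 to 0.442 over the 10).

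Hist2h2aa1, a histone gene 341 kb from Car14, fell from 27.9 ± 12.8 to 13.5 ± 4.34 CPM (-1.07 ± 0.35, edgeR adjusted p = 0.0368). Its call was lost with library totals alone and without control 2 (log2 change -0.61), cold 4 or cold 11 (adjusted p of 0.0502 to 0.175 over 5 alternatives). It belongs to a multigene family and lies within the antisense gene Gm20633 (-1.01 ± 0.37, edgeR adjusted p = 0.0546), so reads may be shared. Gm20633 was called under 6 alternatives, while without control 2 its change was -0.51 (edgeR adjusted p = 0.271). Gm20632 (-1.01 ± 0.49, edgeR adjusted p = 0.138) was called under 2, and without control 2, which had 58.4 CPM against 20.6 and 16.8 in the other controls, its change was -0.20 (edgeR adjusted p = 0.754). Rab2a, 297 kb from Car8, had a log2 change of 0.23 ± 0.43 (edgeR adjusted p = 0.708). Tars2, Anp32e, Vps45, Sf3b4, Bola1 and Gm20634, all near Car14, had 10 to 22 reads and were not tested.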
